A study of Rattus norvegicus with 6 samples.

Results

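miR-26a and miR-26b are 2 closely related microRNAs, described here in RSC96 cells, immortal Schwann cells of the rat, kept for 48 h in high glucose (3 libraries) or, as controls, in low glucose (3 libraries). Their reads were taken as every sequence listed under the hairpins rno-mir-26a and rno-mir-26b, 2 of 752 hairpins in all, and were split by hairpin arm and by isomiR, that is, by start, end and mismatch. No source used here states the glucose concentrations. The series title speaks of exosomes, the cell line and nerve stand in the sample characteristics, and the extraction text names retina, so it is uncertain whether vesicle or whole-cell RNA was sequenced. Whether the replicates were grown as separate cultures is not stated, so the spread that every p-value rests on may be a technical one.

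A miRNA is cut from a hairpin RNA and guides the silencing of mRNAs that pair with its seed, bases 2 to 8. miR-26 is known to repress the histone methyltransferase EZH2, and in human lymphoma cells its genes are repressed by the growth regulator MYC. Its hairpins lie in the CTDSP genes, which encode small phosphatases that act on RNA polymerase II. In human cells the enzyme TUT4 adds uridines to the 3′ end of miR-26a, which makes variation at this end of particular interest.

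The mature sequences from RefSeq (GRCr8) are shown because both miRNAs share 1 seed and differ near the 3′ end. Capitals mark the seed.
rno-miR-26a-5p: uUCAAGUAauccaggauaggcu
rno-miR-26b-5p: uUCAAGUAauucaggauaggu
rno-miR-26a-3p: cCUAUUCUugguuacuugcac
rno-miR-26b-3p: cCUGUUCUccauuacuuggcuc
Counted from the 5′ end, with the base of miR-26a first, the 5p sequences differ by C11U and C21U, and miR-26b-5p ends 1 base earlier in RefSeq. The shared seed pairs with the site UACUUGA.

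The hairpins show where the reads fall. Capitals mark the 2 mature arms.
rno-mir-26a hairpin: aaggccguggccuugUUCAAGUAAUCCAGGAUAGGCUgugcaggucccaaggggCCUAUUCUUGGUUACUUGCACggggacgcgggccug
rno-mir-26b hairpin: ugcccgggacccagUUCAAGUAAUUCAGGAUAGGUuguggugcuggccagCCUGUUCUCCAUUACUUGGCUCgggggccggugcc
Both hairpins are identical in the deposited files and in RefSeq. In GRCr8 Mir26a lies at chr8:127633048-127633137 on the plus strand, within the span of Ctdspl, and Mir26b at chr9:83425709-83425793 on the plus strand, within the span of Ctdsp1. No source used here names the build of the deposited files.

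The high glucose libraries held 963706 to 1354456 counts and the low glucose libraries 114615 to 148143, a 9.31-fold difference between the group means. Of 932 mature arms 297 had enough counts to be tested. Of the marker lists for other cells, the 4 erythroid miRNAs summed to 762 to 954 CPM (counts scaled to a common TMM-adjusted library size) in high glucose and 3237 to 6395 CPM in low glucose. The neuronal list, with 4 of 5 listed and miR-124-3p not listed, summed to 15886 to 22091 CPM in high glucose, against 2795 to 4684 CPM in low glucose, where miR-9a-3p and miR-129-5p were at 0. The liver miRNA miR-122-5p stood at 8509 to 14743 CPM in high glucose, against 3002 to 4317 CPM in low glucose. Leukocyte miRNAs (4 of 5 listed, miR-142-3p not among them) summed to 40.1 to 239 CPM in high glucose and 90.5 to 143 CPM in low glucose. Retinal miRNAs (3 of 5 listed, miR-204-5p at 0 in low glucose) summed to 57.2 to 72.8 CPM in high glucose and 48.7 to 89.6 CPM in low glucose. Muscle miRNAs, 2 of 4 listed, summed to at most 56.4 CPM in high glucose and 0 in low glucose. Of the 6 Schwann cell miRNAs 5 were listed, without miR-138-5p, and summed to 154240 to 220570 CPM in high glucose and 367460 to 459780 CPM in low glucose. The part of other cells, and of the depth, in the results that follow was not tested. In such bulk libraries fewer cells of a type and less RNA per cell cannot be told apart.

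miR-26a-5p was an abundant miRNA in every library and stood slightly lower in high glucose, by an amount that did not pass the test. It had 6446, 5266 and 6451 CPM in the high glucose libraries and 7060, 7834 and 7479 CPM in the low glucose libraries. The groups did not overlap, with the second high glucose library the lowest of all. The mean of the high glucose libraries was 6054 ± 683 CPM and that of the low glucose libraries 7458 ± 387 CPM (SD, n = 3). The log2 fold change was -0.30 (SE 0.15, edgeR quasi-likelihood test, Benjamini-Hochberg adjusted p = 0.112). Among all arms it ranked 29, 34 and 31 in the high glucose libraries and 22, 22 and 23 in the low glucose libraries.

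miR-26b-5p, which carries the same seed, was much less abundant and fell in high glucose. Its levels were 316, 351 and 349 CPM in high glucose and 480, 496 and 475 CPM in low glucose, with no overlap between the groups. Raw counts behind them were 305, 430 and 426 in high glucose and 69, 74 and 53 in low glucose, so counting error is larger in the low glucose libraries. The high glucose mean was 338 ± 19.8 CPM and the low glucose mean 484 ± 11.0 CPM (SD, n = 3), and the log2 fold change was -0.51 (SE 0.19, edgeR adjusted p = 0.0413). The call was lost without high glucose replicate 1 or 3 and without any of the low glucose replicates, with adjusted p from 0.0620 to 0.260. It held without high glucose replicate 2, at an adjusted p of 0.0236.

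**Figure D1:**
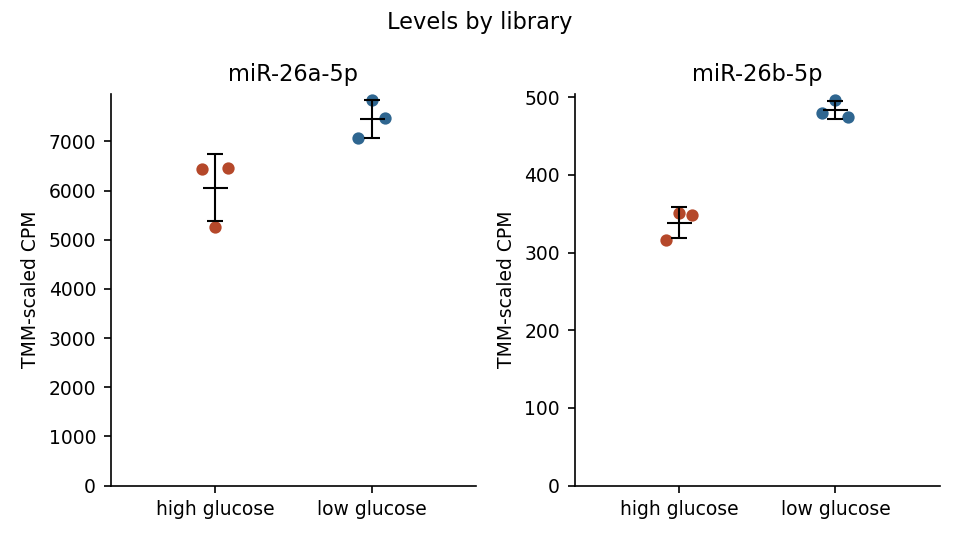
TMM-scaled CPM of miR-26a-5p and miR-26b-5p in each library. Points are libraries, black lines the mean ± SD (n = 3 per group). High glucose libraries lie below all low glucose libraries for both, at 5266 to 6451 against 7060 to 7834 CPM for miR-26a-5p and 316 to 351 against 475 to 496 CPM for miR-26b-5p.

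These values stand beside a large background of change. Of the 297 tested arms 64% were called in either direction, 41.4% higher and 22.6% lower, and the groups did not overlap in 71.7%, with high glucose below in 25.9% and above in 45.8%. The 2 members thus gave 1 lower call, and separate groups in both, in a table where most arms separate. Over the tested arms the median log2 fold change was 0.68, and relative to it miR-26a-5p stood at -0.98 and miR-26b-5p at -1.20. In raw counts the group means of miR-26a-5p differed 6.81-fold and those of miR-26b-5p 5.92-fold, below the 9.31-fold difference in depth.

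Whether either miRNA was called depended on the processing. The scaling mattered for miR-26a-5p and the depth for both. For miR-26b-5p the libraries, the reads counted, the filter, the test and a replicate block, that is, a term for the replicate number, mattered. miR-26b-5p was not called without a filter on low counts (edgeR adjusted p = 0.409) or with limma-voom (adjusted p = 0.0503). With the replicate block it was not called either (edgeR adjusted p = 0.1155). With upper quartile scaling, which shifted the median of all tested arms by -0.56, the log2 fold change was -0.89 for miR-26a-5p (edgeR adjusted p = 0.00189) and -1.11 for miR-26b-5p (edgeR adjusted p = 0.00227). Relative to the median arm these are -1.01 and -1.23, close to the values with TMM. With only the most abundant sequence of each arm counted, the log2 fold changes were -0.08 and -0.36, and neither was called (edgeR adjusted p = 0.708 and 0.241). Thinned to equal depth, 114497 reads a library, they lay at -0.50 (edgeR adjusted p = 0.0210) and -0.55 (edgeR adjusted p = 0.126), and the median of the tested arms was 0.07, so the distances from it shrank to -0.57 and -0.62. No alternative of the fit over arms turned the direction of either miRNA. In the separate fit over isomiRs, which has its own TMM scale, the main miR-26a-5p sequence lay at 0.21 (SE 0.17, edgeR adjusted p = 0.306). The 22-base and 21-base forms of miR-26b-5p lay there at -0.05 (SE 0.26, adjusted p = 0.874) and 0.22 (SE 0.30, adjusted p = 0.571). The sign for these main forms thus depended on the scale.

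**Figure D2:**
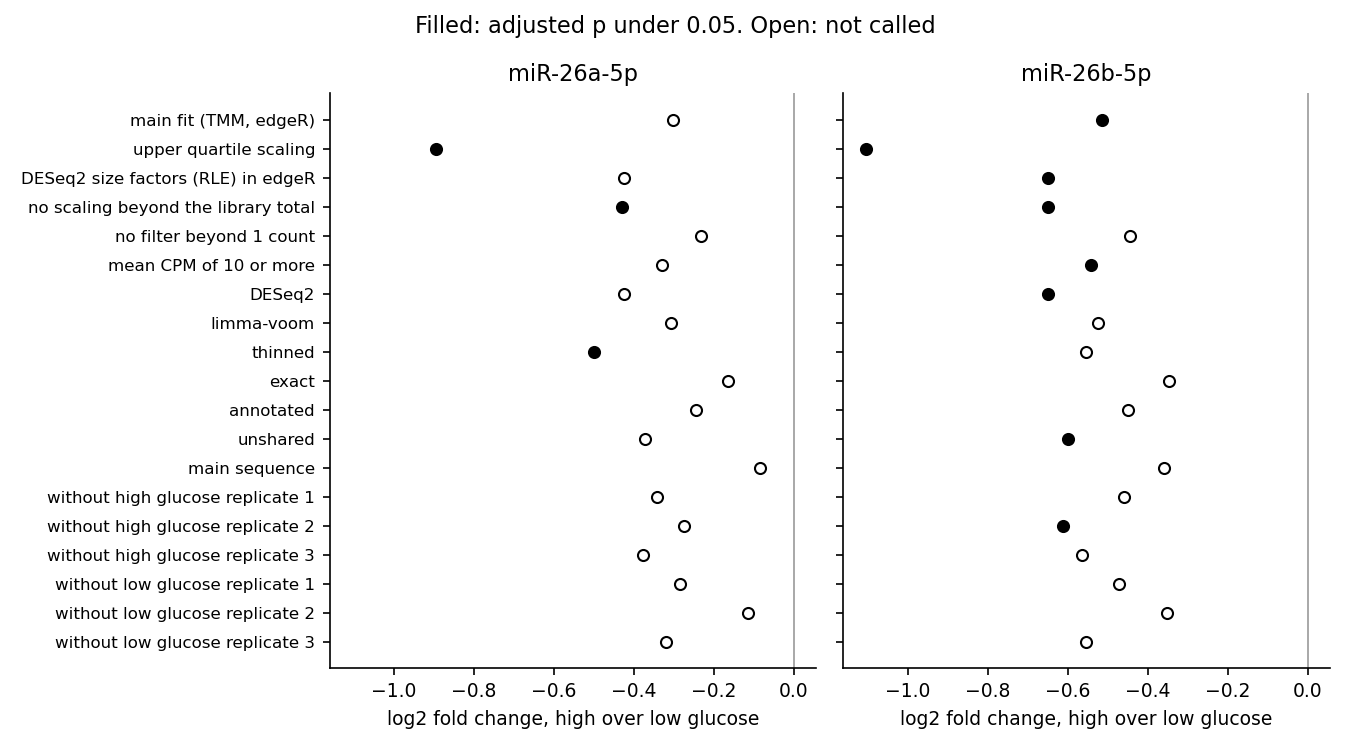
Log2 fold change of miR-26a-5p and miR-26b-5p, high over low glucose, in the main fit and under alternatives of scaling, filter, test, counted reads and libraries (exact: reads without mismatch; unshared: reads of 1 hairpin only; annotated: no predicted hairpins; thinned: equal depth). The fit with a replicate block is not plotted. Filled points have an adjusted p under 0.05. All points lie below 0, from -0.89 to -0.08 for miR-26a-5p and from -1.11 to -0.35 for miR-26b-5p.

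The balance of the pair did not pass a test. miR-26a-5p had 20.4, 15 and 18.5 counts for each count of miR-26b-5p in high glucose, and 14.7, 15.8 and 15.8 in low glucose. The high glucose ratios spread more widely and their lowest value lies among those of low glucose. The log2 ratio was 4.16 ± 0.23 in high and 3.95 ± 0.06 in low glucose (SD, n = 3), with an exact two-sided permutation p of 0.3, where 0.1 is the smallest that 3 against 3 libraries allow. The pair shared 3 sequences, whose 28 counts under each name are 0.119% of the counts listed for rno-mir-26a and 2.04% of those for rno-mir-26b. No member sequence was listed under any other hairpin.

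The passenger arms were nearly absent. miR-26a-3p was listed at 0 in all 6 libraries. miR-26b-3p was listed with 8 counts in high glucose replicate 1 and 9 in replicate 3, and at 0 in the other high glucose library and in all low glucose libraries. Its reads had 2 forms, and a single base was missing at the 5′ end of the second, which moves its seed (in capitals; the files write U as T).
miR-26b-3p, replicate 1: cCTGTTCTccattacttggctc
miR-26b-3p, replicate 3: cTGTTCTCcattacttggctc
Sequences with a single read are not listed, so a listed 0 is no measure of absence, and neither arm was tested.

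The 5p arms held 84 isomiRs, 68 of miR-26a and 16 of miR-26b, and 86 isomiRs were found with the 3p arm included. Of the 86, 32 were listed in both groups, 48 in high glucose libraries only and 6 in low glucose libraries only, in libraries that differ in depth. Just 13 passed the filter on low counts, 11 of miR-26a-5p and 2 of miR-26b-5p, but they carried 97.7% and 88.9% of the counts of these arms. The other 73 had at most 56 counts in total. The sequences that carry the results below are shown as the files write them. Capitals mark the seed where the read matched the hairpin, and otherwise the mismatched base or the tail past the mature end.
miR-26a-5p, main sequence: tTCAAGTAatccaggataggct
miR-26a-5p, last base C: ttcaagtaatccaggataggcC
miR-26a-5p, last base A: ttcaagtaatccaggataggcA
miR-26a-5p, last base G: ttcaagtaatccaggataggcG
miR-26a-5p, tail A: ttcaagtaatccaggataggctA
miR-26a-5p, tail AT: ttcaagtaatccaggataggctAT
miR-26a-5p, tail T: ttcaagtaatccaggataggctT
miR-26a-5p, tail TT: ttcaagtaatccaggataggctTT
miR-26a-5p, start 1 base later: tCAAGTAAtccaggataggct
miR-26a-5p, extra C at the start: Cttcaagtaatccaggataggct
miR-26b-5p, main sequence: tTCAAGTAattcaggataggtt
miR-26b-5p, RefSeq form: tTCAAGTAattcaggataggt
A mismatched last base cannot be told apart from a miRNA that ends 1 base earlier and carries 1 added base.

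The main sequence of miR-26a-5p, at places 16 to 37 of its hairpin and identical to the RefSeq mature form, made up 85.3%, 84.3% and 82.9% of the arm's counts in high glucose and 79.9%, 76.5% and 81.0% in low glucose. All high glucose shares lie above all low glucose shares. The mean was 84.2% ± 1.23 in high and 79.1% ± 2.34 in low glucose (SD, n = 3), with an exact permutation p of 0.1, the smallest possible, and 0.309 adjusted over 34 shares compared.

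The share that high glucose libraries had less of lay at the 3′ end. Reads whose last base or tail did not match the hairpin made up 11.97% ± 0.894 of miR-26a-5p in high and 17.1% ± 1.18 in low glucose (SD, n = 3), without overlap of the groups (exact permutation p = 0.1, the smallest possible). In miR-26b-5p the same class took 5.47% ± 1.92 in high and 13.7% ± 2.35 in low glucose (SD, n = 3), again without overlap and at the same p. There it rests on 92 counts in all libraries together. After thinning to equal depth the exact permutation p was 0.1 for miR-26a-5p and 0.2 for miR-26b-5p. As for every share with a p of 0.1, the p adjusted over the 34 shares was 0.309.

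The single miR-26 isomiR that passed the test was the one ending in G, called T22G here: position 22 from the 5′ end has T in the hairpin and G in the read. It fell in high glucose, with 8, 9 and 8 counts in the high glucose libraries and 30, 33 and 12 in the low glucose libraries. The shallower libraries thus held more of it even in raw counts. Its share of the arm was 0.129% (95% Wilson interval 0.0651 to 0.253%), 0.140% (0.0735 to 0.265%) and 0.102% (0.0514 to 0.2001%) in high glucose. In low glucose it was 2.96% (2.08 to 4.19%), 2.82% (2.02 to 3.94%) and 1.44% (0.824 to 2.50%). No interval of one group reaches the other group, and intervals cover counting error only.

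In the edgeR fit over all 1530 tested isomiRs, which has its own TMM scale, T22G had a log2 fold change of -4.17 (SE 0.53, adjusted p = 0.000244). Of all tested isomiRs 52.8% were called, 34.8% higher and 18% lower. Against all tested isomiRs of its arm together T22G had a relative log2 fold change of -4.29 (SE 0.52, edgeR diffSpliceDGE, adjusted p = 3.35e-09). In this test 17.3% of 1441 isomiRs were called, 7.22% higher and 10.1% lower. By its p there T22G was number 26 of the 1441. It remained called in every alternative fit run on it, at -4.70 to -3.80 on the isomiR scale and -4.53 to -4.12 relative to its arm.

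**Figure D3:**
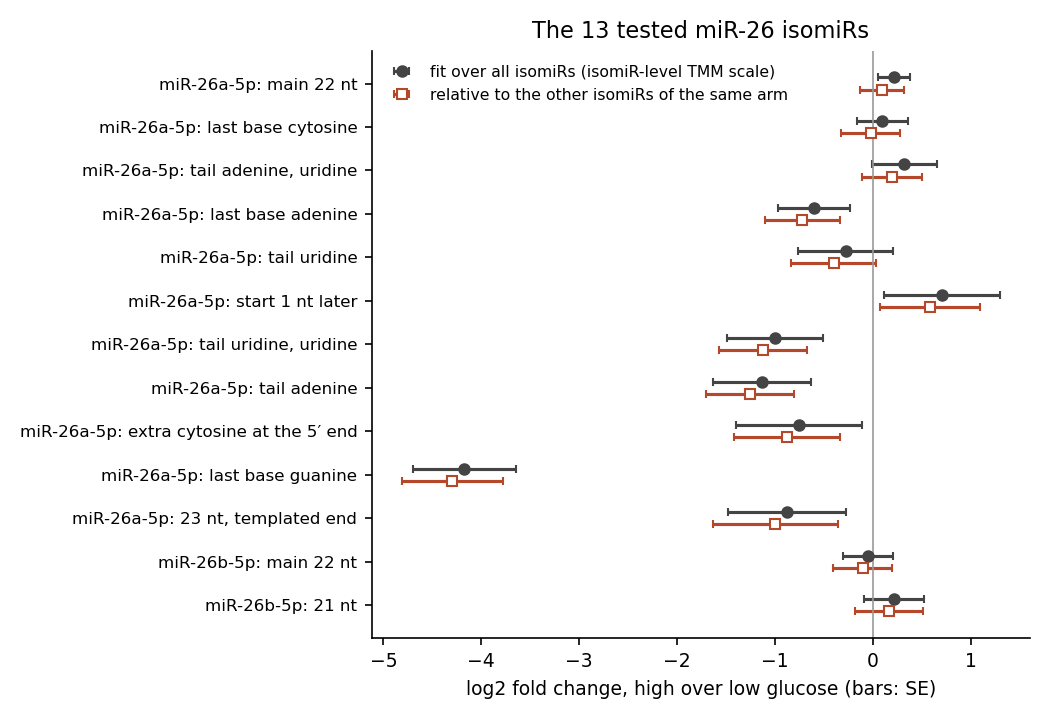
Log2 fold changes, high over low glucose, of the 13 tested isomiRs of miR-26a-5p (11) and miR-26b-5p (2). Filled circles are from the fit over all isomiRs, and bars are SE. Open squares, labelled as relative to the other isomiRs, are relative to all tested isomiRs of the same arm together. The isomiR ending in guanine lies at -4.17 and -4.29, and all others lie between -1.25 and 0.71.

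None of the other last bases gave a called isomiR of miR-26a-5p in these fits, though the one ending in A was called without scaling, at -1.14 (edgeR adjusted p = 0.0295). Reads ending in C, which in pooled counts were the most common single isomiR after the main sequence, numbered 246, 274 and 290 in high and 39, 54 and 29 in low glucose, or 3.96% ± 0.286 and 3.98% ± 0.585 of the arm (SD, n = 3; exact permutation p = 1). Reads ending in A took 1.42% ± 0.282 in high and 2.30% ± 0.666 in low glucose (SD, n = 3), without overlap (exact permutation p = 0.1, the smallest possible). After thinning to equal depth their share differed by only -0.15 percentage points, high minus low glucose (exact permutation p = 0.9). The main isomiR of that class had a relative log2 fold change of -0.72 (SE 0.38, diffSpliceDGE adjusted p = 0.333).

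The pattern at G was not limited to miR-26a. For other miRNAs any mismatched final base was counted, also just past the mature end, where in miR-26a-5p it was classed as a tail. Over all miRNAs other than miR-26, reads whose mismatched last base was G made up 0.117% ± 0.0115 of the counts in high and 0.292% ± 0.108 in low glucose (SD, n = 3), a 2.50-fold difference toward low glucose. Of 21 such isomiRs tested against their own arm, 11 were lower and 0 higher, with a median relative log2 fold change of -2.19. For a mismatched last A the counts were 10 lower and 8 higher of 134, for C 13 lower and 2 higher of 106, and for T 3 lower and 5 higher of 115. Over these other miRNAs the mean shares for A, C and T were higher in high glucose. They were 3.67%, 2.61% and 3.47% in high glucose, against 3.27%, 1.82% and 2.33% in low glucose. In miR-26b-5p tails that began with A were seen only in low glucose, in 2, 3 and 3 counts, and a last G was seen in 2 counts, both in low glucose replicate 2.

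**Figure D4:**
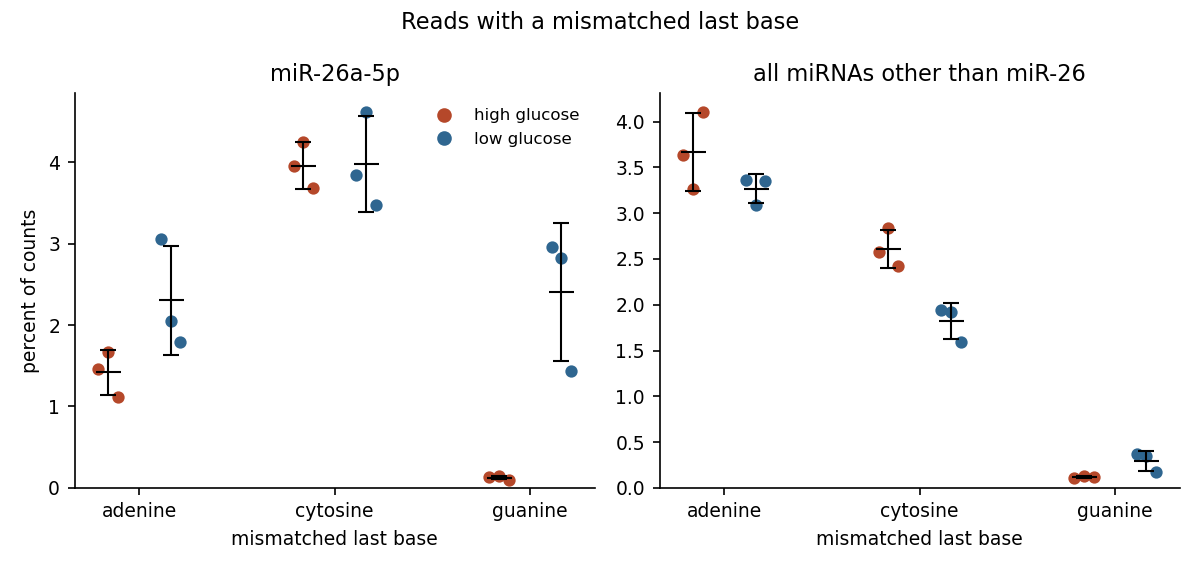
Percent of counts with a mismatched last base, by base, for miR-26a-5p (left) and for all miRNAs other than miR-26 (right). A mismatched final base just past the mature end is counted on the right but not on the left, where it is a tail. Points are libraries and black lines the mean ± SD (n = 3 per group). Guanine stands at 0.123% in high and 2.41% in low glucose for miR-26a-5p, and at 0.117% and 0.292% for the other miRNAs, while cytosine shares overlap in miR-26a-5p and are higher in high glucose in the others.

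Tails beyond the mature end were the next large group. Tails that began with A made up 4.56% ± 1.14 of miR-26a-5p in high and 5.08% ± 0.926 in low glucose (SD, n = 3; exact permutation p = 0.8). Most of these were the 2-base tail AT, with 221, 200 and 376 counts in high and 22, 47 and 32 in low glucose, and a relative log2 fold change of 0.20 (SE 0.31, diffSpliceDGE adjusted p = 0.779). The third high glucose library held the most. In the AT tail the A is a mismatch and the T matches the next base of the hairpin. No listed miR-26 isomiR had more than 1 mismatch or insertion. Tails with 2 mismatched bases were thus not listed, which limits the 2-base tails that can be seen. The 1-base tail A had 34, 29 and 86 counts in high and 19, 21 and 11 in low glucose, at -1.25 relative to its arm (SE 0.45, diffSpliceDGE adjusted p = 0.115). Without high glucose replicate 3 this isomiR was called, at -1.74 and an adjusted p of 0.0174, and it was called after thinning to equal depth, at -1.71 and an adjusted p of 0.0263.

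Tails that began with T, the form a uridine tail takes in the files, made up 1.54%, 1.95% and 2.11% of miR-26a-5p in high glucose and 2.76%, 2.74% and 3.95% in low glucose. All high glucose libraries lie below the low glucose ones, and the exact permutation p was 0.1, the smallest possible. Over all miRNAs other than miR-26 the share with a mismatched last T, an unlike measure, was higher in high glucose. The 1-base form had 45, 61 and 128 counts in high and 9, 22 and 13 in low glucose, and the 2-base form TT had 51, 65 and 38 in high and 19, 10 and 20 in low glucose. In TT, as in AT, only the first base is a mismatch and the T after it matches the hairpin. Neither passed the test of isomiRs relative to their arm, at -0.40 (SE 0.43, diffSpliceDGE adjusted p = 0.682) for T and -1.12 (SE 0.45, adjusted p = 0.166) for TT.

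**Figure D5:**
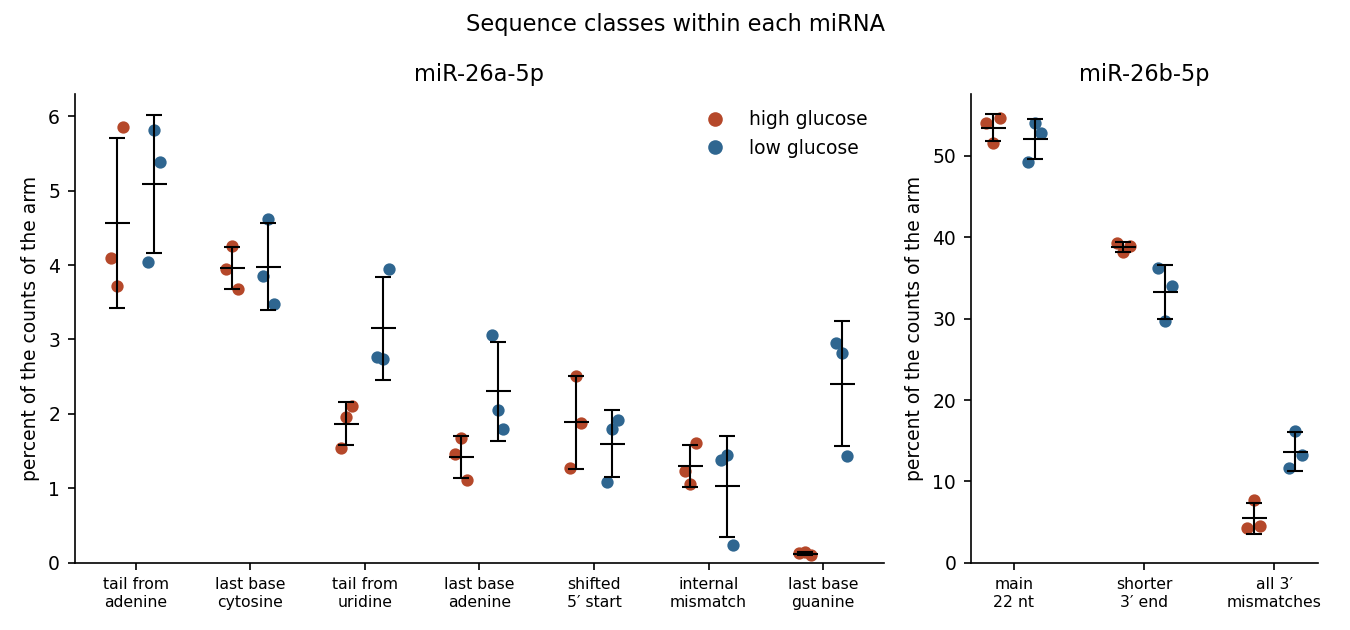
Percent of the counts of miR-26a-5p (left) and miR-26b-5p (right) in each class of sequence. Points are libraries and black lines the mean ± SD (n = 3 per group). Of the classes plotted, the groups do not overlap for miR-26a-5p in tails that begin with uridine and in last bases adenine and guanine, and for miR-26b-5p in shorter 3′ ends and all 3′ mismatches. The shares are those before thinning to equal depth.

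The 5′ end, which sets the seed, varied little. Reads with a moved start made up 1.89% ± 0.622 of miR-26a-5p in high and 1.60% ± 0.449 in low glucose (SD, n = 3; exact permutation p = 0.5). The form that starts 1 base later, whose seed pairs with UUACUUG, had 44, 91 and 73 counts in high and 2, 10 and 8 in low glucose. Its relative log2 fold change was 0.59 (SE 0.51, diffSpliceDGE adjusted p = 0.601). The form with an extra C at the start, which does not match the hairpin, had 8, 41 and 44 counts in high and 9, 9 and 6 in low glucose (relative log2 fold change -0.88, SE 0.54, diffSpliceDGE adjusted p = 0.418).

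miR-26b-5p had 2 main ends. The form of 22 bases, 1 base longer than the RefSeq mature sequence, was the most abundant in every library, with 165, 222 and 233 counts in high and 34, 40 and 28 in low glucose. The RefSeq form of 21 bases had 116, 156 and 154 counts in high and 20, 20 and 18 in low glucose. Shorter 3′ ends than the main one took 38.8% ± 0.616 of the arm in high and 33.3% ± 3.30 in low glucose (SD, n = 3), without overlap (exact permutation p = 0.1, the smallest possible). After thinning to equal depth the exact permutation p of this share was 0.2. Relative to their arm neither form passed the test, at -0.10 (SE 0.30, diffSpliceDGE adjusted p = 0.887) for 22 bases and 0.16 (SE 0.35, adjusted p = 0.839) for 21 bases. By contrast shorter exact 3′ ends of miR-26a-5p took 0.112% ± 0.132 in high and 0.553% ± 0.417 in low glucose (SD, n = 3).

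The tested annotated arms most like miR-26a-5p over the 6 libraries, by the root mean square difference in centred log2 CPM, were miR-185-5p (0.0962), miR-143-3p (0.0997), miR-146b-5p (0.119), let-7i-5p (0.126) and miR-221-5p (0.149). Closest to miR-26b-5p were miR-29a-3p (0.129), miR-146a-5p (0.138), miR-450b-5p (0.139), let-7i-5p (0.143) and miR-450a-5p (0.156). The pair itself lay 0.170 apart, which made miR-26b-5p number 7 of 197 for miR-26a-5p and miR-26a-5p number 6 for miR-26b-5p. miR-185-5p averaged 1165 CPM in high glucose, against 1313 CPM in low glucose, and miR-29a-3p averaged 6183 CPM in high glucose, against 7796 CPM in low glucose.

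Calls among miRNAs known to act beside miR-26 were read against all 297 tested arms, of which 41.4% were higher and 22.6% lower. Of 28 miRNAs known as repressed by MYC, 25 were tested, and 10 were higher and 6 lower, shares near those of all arms, with a median log2 fold change of -0.06 against 0.68 over all tested arms. Members such as let-7c-5p, at 2.99 (SE 0.18, edgeR adjusted p = 2.54e-05), and miR-15b-5p, at -2.30 (SE 0.44, edgeR adjusted p = 0.00245), stood on either side of miR-26a-5p. Of 10 miRNAs known to target EZH2, 7 were tested, with 3 higher and 3 lower, numbers too small to set against those shares. There miR-101a-3p, at -1.07 (SE 0.18, edgeR adjusted p = 0.00136), and miR-101b-3p, at -0.90 (SE 0.16, edgeR adjusted p = 0.00177), were lower together with miR-26b-5p, and the higher ones were let-7a-5p, let-7c-5p and miR-98-5p. With upper quartile scaling the counts were 7 higher and 11 lower for the MYC list, and 2 higher and 4 lower for the EZH2 list, and over all 297 arms the calls shifted the same way, to 91 higher and 93 lower in place of 123 and 67. Both miR-26 miRNAs belong to both lists and are part of their counts. With the main sequence of each arm only, the calls were 12 higher and 3 lower for the MYC list, and 3 higher and 1 lower for the EZH2 list. Of all 236 arms tested that way 89 were higher and 40 lower.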

How the data were processed

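Small RNA was sequenced from 6 libraries, and titles gave their group and number. The authors deposited raw read counts, 1 value for each sequence on each hairpin, with its place and mismatch, per the file headers. A sequence listed under several hairpins has its reads shared evenly among them, as the read totals in the files show. Per the submitters' processing notes, Novoalign 3.02.12 and cutadapt 1.9.3 were used, with no role given. Listed sequences are 16 to 40 nt long and have at least 2 reads.

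From these, counts were summed per arm (sequence centre before or after the hairpin midpoint) and per isomiR (start, end, mismatch). Reads with an undetermined base, 27 counts, stayed with the isomiR of their place. All 932 arms and 10098 isomiRs entered edgeR 4.0.16 quasi-likelihood fits in R 4.3.3 (TMM, filterByExpr with minimum 10, robust, Benjamini-Hochberg at 0.05). diffSpliceDGE set the fold change of each isomiR against that of all tested isomiRs of its arm, itself included. Each SE is the size of the log2 fold change over the root of its F value. DESeq2 1.42.0 and limma 3.58.1 served as alternatives. Log2 CPM values came from the main edgeR data at a prior count of 2. Fits were tested on simulated data. Shares and ratios, which need no scaling, used exact permutation tests (Python 3.11.15, pandas 2.3.3, NumPy 2.4.6, SciPy 1.17.1), with matplotlib 3.10.9 for figures. Members, lists and tests were chosen with earlier results of these data known. The rule for isomiRs to name was the 10 most abundant of each arm and every called one, and not all are described. Results for 1 further list of miRNAs are not reported here.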

Additional observations from a re-analysis of the deposited data

How the results depend on the processing

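No alternative of the fit over arms turned the direction of miR-26a-5p or miR-26b-5p. miR-26a-5p was called at -0.89 with upper quartile scaling, -0.43 without scaling and -0.50 after thinning to 114497 reads per library, and miR-26b-5p was not called at -0.44 without a filter, -0.52 with limma-voom, -0.55 after thinning, -0.35 with exact reads, -0.45 with annotated hairpins and -0.36 with the main sequence only. Without single libraries miR-26a-5p lay between -0.38 and -0.12, and miR-26b-5p between -0.61 and -0.35. The replicate block left miR-26a-5p at -0.31 (edgeR adjusted p = 0.190) and miR-26b-5p at -0.52, not called (adjusted p = 0.115). It called 104 arms higher and 58 lower in place of 123 and 67. Deviations from the group mean in same-numbered libraries had correlations of 0.0449, -0.000712 and -0.0285. These cannot settle whether such libraries were handled together, which the labels do not state.
Over all arms, 68 were called higher after thinning and 78 with annotated hairpins (123 in the report's fit), and 40 lower with the main sequence only (67). Over all isomiRs, 252 were called higher after thinning (532), and 52 were higher relative to their arm without a filter (104). Leaving out single libraries gave 79 to 117 arms higher and 41 to 59 lower, 328 to 662 isomiRs higher and 175 to 268 lower, and 37 to 96 higher and 88 to 143 lower relative to their arm. Of the miR-26 isomiRs, 1, the main miR-26a-5p sequence, was called higher without a filter (0.58, edgeR adjusted p = 0.0399). Called lower were 3 with upper quartile scaling, 4 without scaling, 2 with a mean CPM of 10 or more and 2 after thinning. Over all isomiRs 714 of 10098 were higher without a filter. In the other settings 344 of 1530, 399 of 1530, 248 of 1975 and 229 of 688 were lower, in the same order. Relative to their arm 2 miR-26 isomiRs were lower after thinning, where 103 of all 653 were. Leaving out single libraries gave 1 to 2 miR-26 isomiRs lower in either fit.

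The isomiR ending in G kept its direction and its call. Several isomiRs not called in the report's fit changed sign with the scale or the filter. With upper quartile scaling, no scaling and thinning, the C ending lay at -0.22, -0.43 and -0.57, the main miR-26a-5p sequence at -0.10, -0.32 and -0.22, and the 21-base miR-26b-5p at -0.11, -0.32 and -0.056. The AT tail lay at -0.20 without scaling and -0.077 after thinning. Without a filter the T tail lay at 0.10 and the 22-base miR-26b-5p at 0.31, or 0.040 relative to its arm, and at 0.15 with a mean CPM of 10 or more. The share of moved 5′ starts, high minus low glucose, differed by -0.28 percentage points after thinning and by -0.026 to 0.60 without single libraries, and that of last base C by -0.27 to 0.30 without them. Without single libraries the T tail ranged from -0.77 to 0.052 and the 22-base miR-26b-5p up to 0.016. Relative to the arm, the C ending ranged from -0.10 to 0.11, the AT tail from -0.024 to 0.38 and the 22-base miR-26b-5p from -0.11 to 0.0075. The cause of these changes was not tested.

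The low glucose libraries held 53 to 74 counts of miR-26b-5p and 12 to 33 of the isomiR ending in G, and this depth limits both.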

Other observations

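Internal mismatches of miR-26a-5p were spread over 20 of its positions. The 3 sequences shared with miR-26b, 28 counts under each name, belong to this class. They lie at positions 11 and 21, where the 2 miRNAs differ, and which miRNA they came from cannot be told. The 32 isomiRs of this class made up 1.30% ± 0.284 of the arm in high and 1.03% ± 0.681 in low glucose (SD, n = 3). The most counted position was 12, with 56 counts in high and 6 in low glucose, followed by position 13, with 34 and 6. The position 12 form, C12T, is shown as the most counted of them, with 2, 17 and 35 in high and 0, 2 and 0 in low glucose (the mismatch is in capitals).
miR-26a-5p, C12T: ttcaagtaatcTaggataggct
None of these isomiRs had enough counts to be tested.

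The number of distinct miR-26a-5p sequences listed was 38 to 40 in the high glucose libraries and 15 to 23 in the low glucose libraries. After thinning every library to 835 counts of this arm, the mean over 100 draws was 14, 13.3 and 14.7 in high and 16.9, 19.2 and 15 in low glucose. At 53 counts of miR-26b-5p the means were 2.80, 3.52 and 3.08 in high and 6.41, 5.27 and 4 in low glucose. The deposited lists hold no sequence with under 2 reads, and this minimum was applied again after thinning.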
